A study of Homo sapiens with 4 samples.

Results

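SR proteins and heterogeneous nuclear ribonucleoproteins (hnRNPs) are the main families of RNA-binding proteins that steer splice site choice. Their genes were examined in SW620 cells, a line derived from a human colorectal cancer. The members were all rows of the deposited table whose symbol begins with SRSF and a digit (the SR family, 12 genes) or with HNRNP (26 genes), 38 of 19389 rows in all. Control SW620 cells were compared with SW620 cells kept in 150 µM hydrogen peroxide (H2O2), an oxidant, for 2 days. There were 2 libraries per group, and the series title calls the exposed cells senescent, meaning arrested in division. The unit of the dose is uncertain, being µM in the labels and mM in the design text. Whether the libraries of a group were grown as separate cultures is not stated. The p-values therefore reflect the spread between these libraries, which may be technical. In bulk RNA, fewer cells of a kind and less RNA per cell cannot be told apart.

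SR proteins carry an RNA recognition motif and a tail rich in arginine and serine. They bind exonic enhancers, recruit the spliceosome and usually favour inclusion of an exon. hnRNPs coat nascent transcripts and often oppose SR proteins by hiding splice sites, and many of them have glycine-rich tails that hold arginine. Many members of both families set their own levels. A common route is a so-called poison exon, which holds an early stop codon and sends the mRNA that includes it to nonsense-mediated decay.

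The coding sequences show the feature that separates the families, and the windows below were chosen as the 60 bases (20 codons) with the most arginine and serine codons side by side in an SR gene, or arginine and glycine codons side by side in an hnRNP gene. They were read from GENCODE release 29 transcripts on hg38, on the coding strand, and capitals mark the paired codons. SRSF3 and SRSF2 are shown because they lay low in treated cells, SRSF11 because it did not, and HNRNPA1 because it is the most abundant member. HNRNPU, also lower, is an example and was not the lowest hnRNP gene. The most arginine-glycine pairs in a window ranged from 1 in HNRNPF to 10 in HNRNPR among hnRNP genes. HNRNPU held 6, and HNRNPM, the lowest hnRNP gene in treated cells, held 2. The windows lie at codons 140 to 159 of SRSF3 (chromosome 6), 127 to 146 of SRSF2 (chromosome 17), 268 to 287 of SRSF11 (chromosome 1), 214 to 233 of HNRNPA1 (chromosome 12) and 683 to 702 of HNRNPU (chromosome 1).
SRSF3: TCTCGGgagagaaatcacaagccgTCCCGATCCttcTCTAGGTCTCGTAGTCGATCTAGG
SRSF2: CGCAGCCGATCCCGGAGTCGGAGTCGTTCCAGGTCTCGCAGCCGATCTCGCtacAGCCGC
SRSF11: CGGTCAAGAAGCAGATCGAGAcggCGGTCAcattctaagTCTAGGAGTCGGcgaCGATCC
HNRNPA1: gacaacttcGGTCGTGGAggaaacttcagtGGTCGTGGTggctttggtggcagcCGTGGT
HNRNPU: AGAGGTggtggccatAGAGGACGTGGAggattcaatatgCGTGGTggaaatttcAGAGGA
Over the whole coding sequence, the 11 SR genes tested held a median of 19.1 arginine-serine codon pairs per 100 codons, from 4.07 in SRSF9 to 23.5 in SRSF2. The 22 hnRNP genes tested held 0.24 to 2.64. Arginine-glycine pairs did not separate the families, at 0.41 to 4.98 per 100 codons in SR genes and 0.85 to 5.45 in hnRNP genes.

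Values are FPKM, fragments scaled to transcript length and to library size, as deposited, so levels can be compared between genes. The read depth is unknown, since no counts were used here. A gene was tested if 2 or more libraries reached 1 FPKM, which held for 11318 genes, by limma on log2(FPKM + 1), and changes below are differences on that scale, H2O2 minus control, ± SE. Of the 38 members, 33 were tested. SRSF12 was listed at 0 in all 4 libraries, and the hnRNP C-like genes HNRNPCL1, HNRNPCL2, HNRNPCL3 and HNRNPCL4 did not exceed 0.144 FPKM in any library. Every tested member exceeded 1 FPKM in all 4 libraries, so none passed the filter through 1 group alone.

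Summed FPKM was 660860 to 695837 in the controls and 574782 to 617668 in the treated libraries. Genes at 100 FPKM or more, 914 of those tested, lay lower as a whole, with a median change of -0.25 against -0.03 for all genes tested. Of 10 markers of colon epithelial carcinoma cells, 7 were tested, and their sum ranged from 6663 to 7719 FPKM in controls and from 5895 to 6030.1 FPKM in treated libraries. KRT8 and EPCAM, at 2669 to 3616 and 215 to 336 FPKM, and VIL1, at 88.4 and 105 and at 67.7 and 72.9 FPKM, lay lower in treated cells without overlap. CDH1 lay higher, at 14.8 and 9.93 FPKM in controls and 23.0 and 16.6 FPKM in treated cells, and KRT18, KRT19 and CDX2 overlapped. CDX1 was listed at 0, and KRT20 and LGALS4 did not exceed 0.742 FPKM. Among 5 leukocyte markers, CD68 had 1.92 and 1.83 FPKM in controls and 7.65 and 17.7 FPKM in treated cells while PTPRC did not exceed 0.00822 FPKM. The summed leukocyte list ranged from 4.87 to 6.28 FPKM in controls and from 12.1 to 36.1 FPKM in treated libraries. The summed fibroblast list (5 genes) ranged from 2.08 to 3.41 and from 2.70 to 5.02 FPKM, and within it THY1 had 0.361 and 0.159 FPKM in controls and 1.37 and 1.93 FPKM in treated cells while COL1A2 and COL3A1 did not exceed 0.00864 FPKM. The erythroid list (4 genes, HBB at 0) ranged from 3.50 to 6.86 and from 3.98 to 10.6 FPKM, and the endothelial list (4 genes) did not exceed 0.459 FPKM. Their part in the results below was not tested. The cyclin-dependent kinase inhibitor gene CDKN1A had 1.46 and 1.25 FPKM in controls and 3.81 and 7.51 FPKM in treated cells, and LMNB1, which encodes the nuclear lamina protein lamin B1, had 92.8 and 105 FPKM in controls and 55.2 and 55.8 FPKM in treated cells.

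Splicing regulator mRNAs lay lower in H2O2-treated cells in both families, led by SRSF3, SRSF2 and HNRNPM, at 61.2%, 63.0% and 64.7% of their control means. The change was below 0 for 10 of 11 SR genes and for 22 of 22 hnRNP genes. The median change was -0.41 for SR genes, with a range of -0.70 to 0.03, and -0.48 for hnRNP genes, with a range of -0.63 to -0.15. Among all genes tested 54.3% had a change below 0, and among genes at 100 FPKM or more 85.8% did, so the SR count was near that of abundant genes. By limma with Benjamini-Hochberg adjustment over all 11318 genes, 0 members and 0 genes in all had an adjusted p under 0.05 (0% called in either direction; at an unadjusted p under 0.05, 704 genes were higher and 556 lower), and the members' adjusted p ranged from 0.305 to 0.976. At an unadjusted p under 0.05, 5 of 11 SR genes and 11 of 22 hnRNP genes were lower and none was higher. The background for a lower call of that kind was 4.91% of all genes tested and 12.3% of genes at 100 FPKM or more, and for a higher call 6.22% and 0.766%. Both treated values lay below both control values for 6 of 11 SR genes (54.5%) and 21 of 22 hnRNP genes (95.5%). The background was 24.0% of all genes and 51.1% of genes at 100 FPKM or more, so the SR share was near that of abundant genes. No member had both treated values above both controls, beside 19.3% of all genes and 2.74% of genes at 100 FPKM or more.

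**Figure D1:**
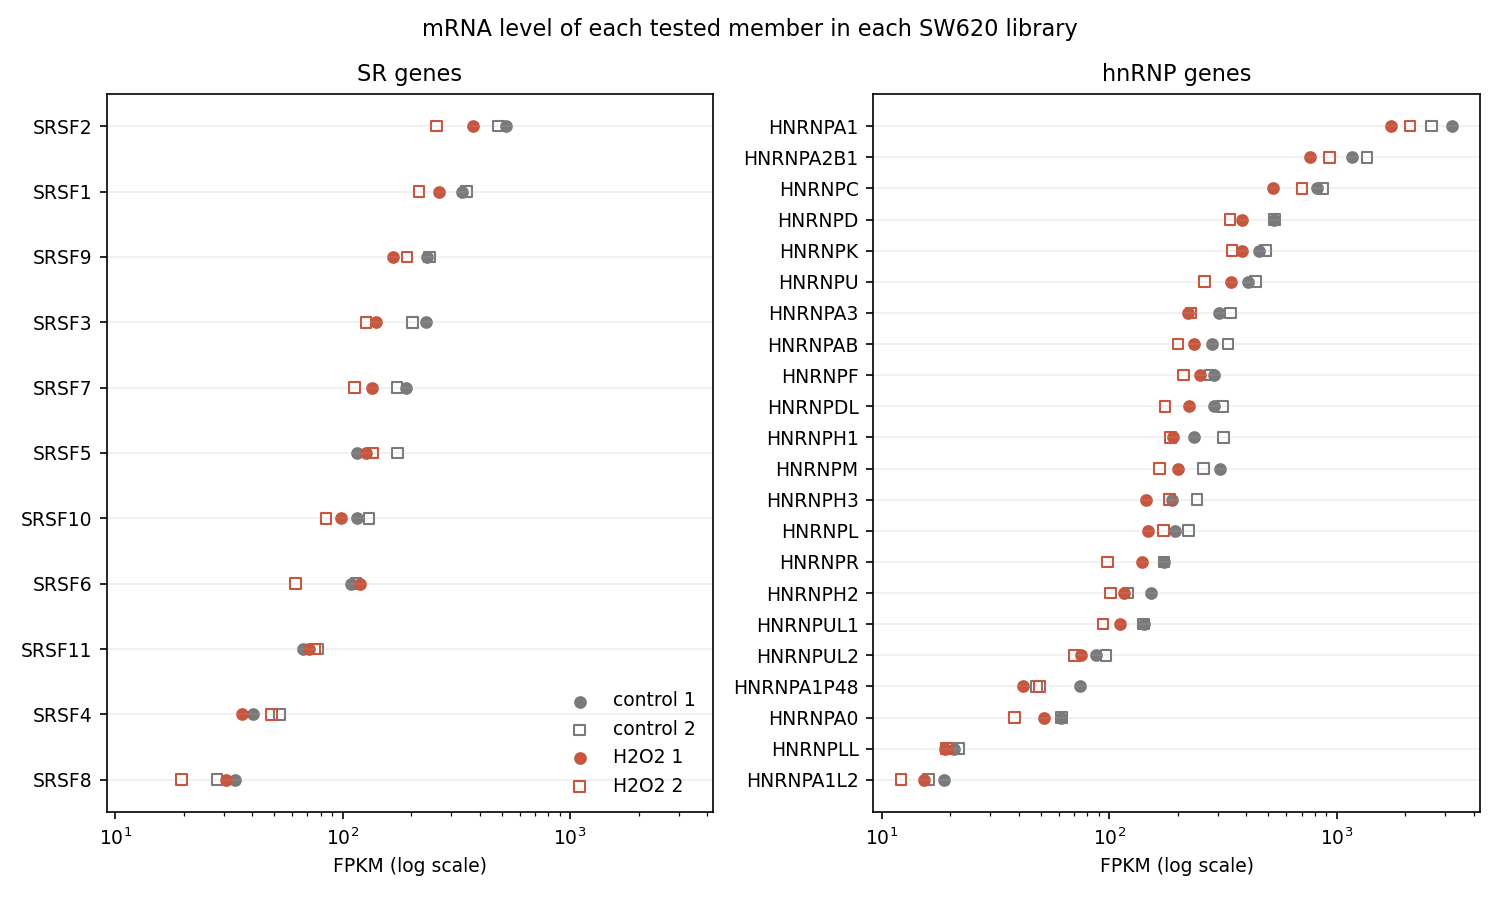
FPKM (log axis) of the 11 SR and 22 hnRNP genes tested, ordered by mean level, with grey symbols for the 2 control libraries and red symbols for the 2 H2O2-treated libraries (filled circle, library 1; open square, library 2). Red symbols lie left of grey ones for 21 of 22 hnRNP genes and 6 of 11 SR genes. Both treated values were likewise the lower ones for 24.0% of all genes tested and 51.1% of genes at 100 FPKM or more, the latter near the SR share.

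These calls depended on scaling. Bringing the libraries to equal totals (TPM) moved the median of all genes by 0.17 and left 1 SR gene, SRSF3, and 1 hnRNP gene, HNRNPA1, at an unadjusted p under 0.05, beside 1.16% of all genes lower. Family medians were then -0.23 and -0.29, with SRSF4, SRSF5 and HNRNPLL above 0. Scaling the libraries on genes at 100 FPKM or more, an alternative chosen after seeing the data, left SRSF3 alone among the members, with medians of -0.17 and -0.23. The background lower at that p was then 0.848% of all genes and 1.64% of genes at 100 FPKM or more. Relative to the median of all genes, hnRNP genes stood at -0.45 as deposited and at -0.43 after rescaling to TPM, and SR genes at -0.38 and -0.37. Relative to genes at 100 FPKM or more, they stood at -0.23 (hnRNP) and -0.16 (SR), and these values rested on single libraries. They were -0.11 and -0.048 without H2O2 library 2, and -0.30 and -0.44 without H2O2 library 1. Without control 1, 0 SR genes and 1 hnRNP gene, HNRNPH1, had an unadjusted p under 0.05, and without control 2, 1 SR and 3 hnRNP genes did. The shares of all genes and of genes at 100 FPKM or more that were lower were 2.02% and 2.74% without control 1, and 0.875% and 2.19% without control 2. Without H2O2 library 2 there were 3 of 11 SR and 9 of 22 hnRNP genes, beside 11.4% of all genes and 31.6% of genes at 100 FPKM or more, so the SR share did not exceed that of abundant genes. Without H2O2 library 1 there were 7 and 13, beside 8.33% and 16.3%.

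**Figure D2:**
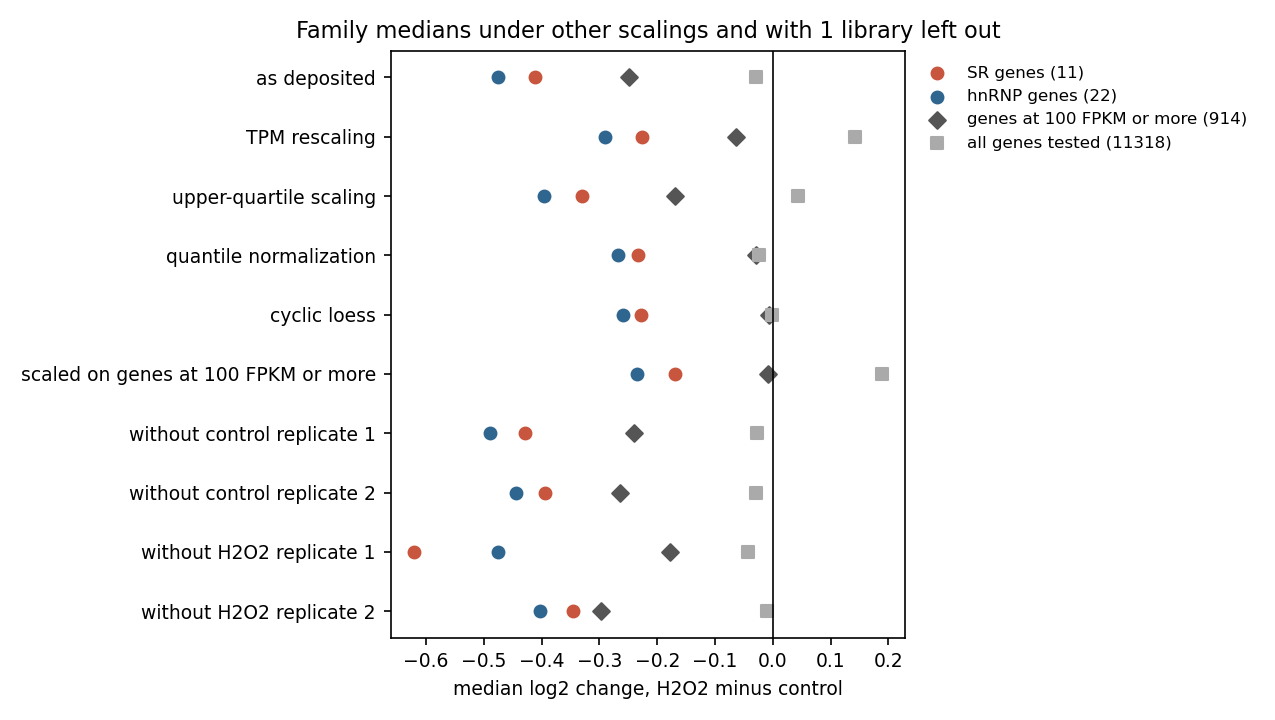
Median log2 change, H2O2 minus control, of the SR genes, the hnRNP genes, genes at 100 FPKM or more and all genes tested, as deposited, under 5 other scalings and with 1 library left out. Family medians lie below both background medians in each row, from -0.62 to -0.17 for SR genes, and the families change order without H2O2 library 1.

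Each family's share of the summed FPKM of its library restates the TPM rescaling above as a sum, so it is not a separate check. The hnRNP genes made up 1.35% and 1.41% in controls and 1.10% and 1.08% in treated libraries, with no overlap. Without HNRNPA1, whose own value is uncertain, they made up 0.892% and 1.01% in controls and 0.796% and 0.743% in treated libraries. The SR genes made up 0.287% and 0.307% in controls and 0.272% and 0.216% in treated libraries, also without overlap, although the treated libraries lay farther apart than the groups at their nearest values. With 2 libraries against 2, an exact two-sided permutation test cannot give a p below 0.333, so none is printed for single values. The summed SR level divided by the summed hnRNP level was 0.212 and 0.218 in controls and 0.248 and 0.199 in treated libraries. The 2 treated values lay on either side of the controls, so the balance between the families showed no shift beyond the spread of libraries.

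Measured gene by gene in each treated library against the control mean, 22 of 22 hnRNP genes were below 0 in both. For SR genes, 9 of 11 were below 0 in each library, but not the same 9. SRSF6 and SRSF8 were above 0 in H2O2 library 1, and SRSF4 and SRSF11 in H2O2 library 2. In the fit over all libraries, 85.8% of genes at 100 FPKM or more and 54.3% of all genes were below 0. The background share below 0 in both treated libraries was not computed, so these counts have no matching share. The median hnRNP difference was -0.40 in H2O2 library 1 and -0.48 in H2O2 library 2. For SR genes it was -0.35 and -0.62. Genes at 100 FPKM or more had medians of -0.30 and -0.18, and all genes tested -0.01 and -0.04. The difference of the family medians, SR minus hnRNP, was 0.06 in the fit, 0.06 in H2O2 library 1 and -0.15 in H2O2 library 2, so its sign turned with the library.

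**Figure D3:**
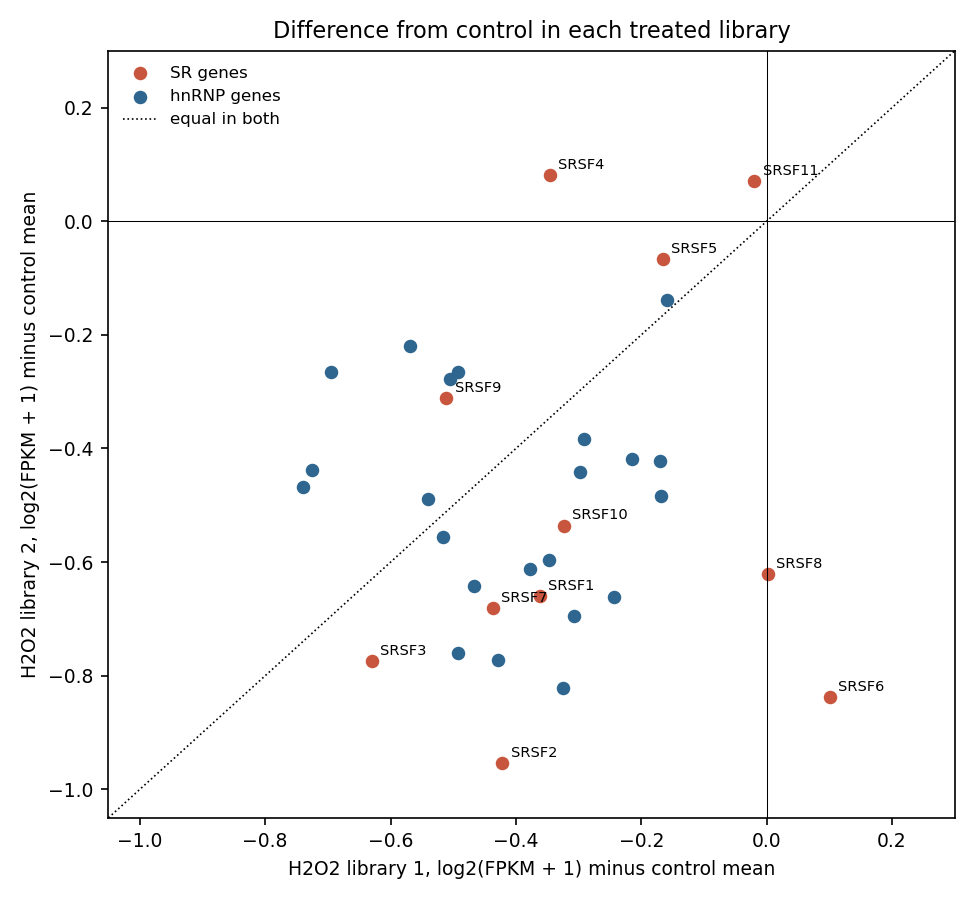
log2(FPKM + 1) minus the control mean in H2O2 library 1 (x axis) and H2O2 library 2 (y axis) for the 33 members tested, with SR genes named and a dotted line where both libraries are equal. All 22 hnRNP genes lie below 0 on both axes, while SRSF4, SRSF6, SRSF8 and SRSF11 lie above 0 on 1 axis and below 0 on the other. Genes at 100 FPKM or more, not drawn, had medians of -0.30 (library 1) and -0.18 (library 2).

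SRSF3, the smallest SR protein, is known in human fibroblasts to decline in senescence. Its gene lies on chromosome 6, 36594353 to 36605600, plus strand (hg38). It had 232 and 202 FPKM in controls and 139.9 and 126 FPKM in treated cells. Both treated values lay well below both controls, and the change of -0.70 ± 0.17 had an unadjusted limma p of 0.00627, the smallest of any member, with an adjusted p of 0.305 over all genes. It was below 0 under 15 of 15 alternatives, from -0.80 to -0.46, and had an unadjusted p under 0.05 in 14 of them. The exception was the fit without control 1 (-0.60; adjusted p = 0.882), and adjusted p over the alternatives ranged from 0.0316 to 1.00. The adjusted p under 0.05 came from the fit with replicate number as a block, in which 397 genes in all were called higher and 190 lower.

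SRSF7, the SR protein with a zinc knuckle, is close to SRSF3 in its RNA recognition motif, and had 190.1 and 174 FPKM in controls and 134 and 113 FPKM in treated cells. The change was -0.56 ± 0.18 (adjusted p = 0.366), and the groups did not overlap. No stretch of 31 bases in SRSF7 transcripts occurred in transcripts of another gene. SRSF3 divided by SRSF7 was 1.22 and 1.17 in controls and 1.05 and 1.12 in treated libraries.

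SRSF2 (chromosome 17, 76734115 to 76737374, minus strand), a general activator of splicing, was the most abundant SR gene at 522 and 484 FPKM in controls and 375 and 259 FPKM in treated cells. The change was -0.69 ± 0.23 (adjusted p = 0.38), with H2O2 library 2 clearly the lower. Its exons overlap those of MFSD11 on the other strand, and the strand setting of the counting is not given in the sources used here, so part of its value is uncertain. SRSF8, a gene that arose as a retroposed copy of SRSF2, had 33.7 and 28.0 FPKM in controls and 30.7 and 19.6 FPKM in treated cells. Those groups overlapped, and the change was -0.31 ± 0.24 (adjusted p = 0.696).

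SRSF1, the founding SR protein and an antagonist of hnRNP A1 in the choice between splice sites, had 335 and 349 FPKM in controls and 266 and 216 FPKM in treated cells. The change was -0.51 ± 0.19 (adjusted p = 0.414) with no overlap. An annotated read-through gene on the same strand, AC015813.2, holds 53.0% of the 31-base stretches of SRSF1 transcripts, so reads of the pair cannot be separated with certainty. SRSF1 divided by HNRNPA1 was 0.104 and 0.134 in controls and 0.153 and 0.103 in treated libraries, which overlapped. SRSF9, a relative of SRSF1 with a short tail, had 235 and 241 FPKM in controls and 167 and 192 FPKM in treated cells, a change of -0.41 ± 0.17 (adjusted p = 0.45). SRSF10, which turns into a splicing repressor when it loses its phosphates, had 116 and 130.3 FPKM and 98.0 and 84.4 FPKM, a change of -0.43 ± 0.17 (adjusted p = 0.443). Neither overlapped between groups.

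SRSF4, SRSF5 and SRSF6, related proteins with a pair of RNA recognition motifs and long tails, overlapped between groups. SRSF4 had 40.3 and 52.7 FPKM in controls and 36.0 and 48.8 FPKM in treated cells (-0.13 ± 0.22). SRSF5 had 116 and 174 FPKM in controls and 127 and 136 FPKM in treated cells (-0.12 ± 0.23). SRSF6 had 108 and 115 FPKM in controls, and 119.5 FPKM in H2O2 library 1 but 61.9 FPKM in H2O2 library 2 (-0.37 ± 0.31). The gap between the treated libraries for SRSF6, -0.94, was wider than for any other member tested. SRSF11, which works with U2AF at the 3' splice site, had 66.6 and 77.5 FPKM in controls and 70.9 and 75.5 FPKM in treated cells, the 1 member with a change above 0 (0.03 ± 0.17). Adjusted p for these 4 genes ranged from 0.715 to 0.976. The sign of SRSF4 and SRSF5 turned under other scalings and with 1 library left out, that of SRSF11 without control 1 or H2O2 library 2, and those of SRSF6 and SRSF8 without H2O2 library 2.

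**Figure D4:**
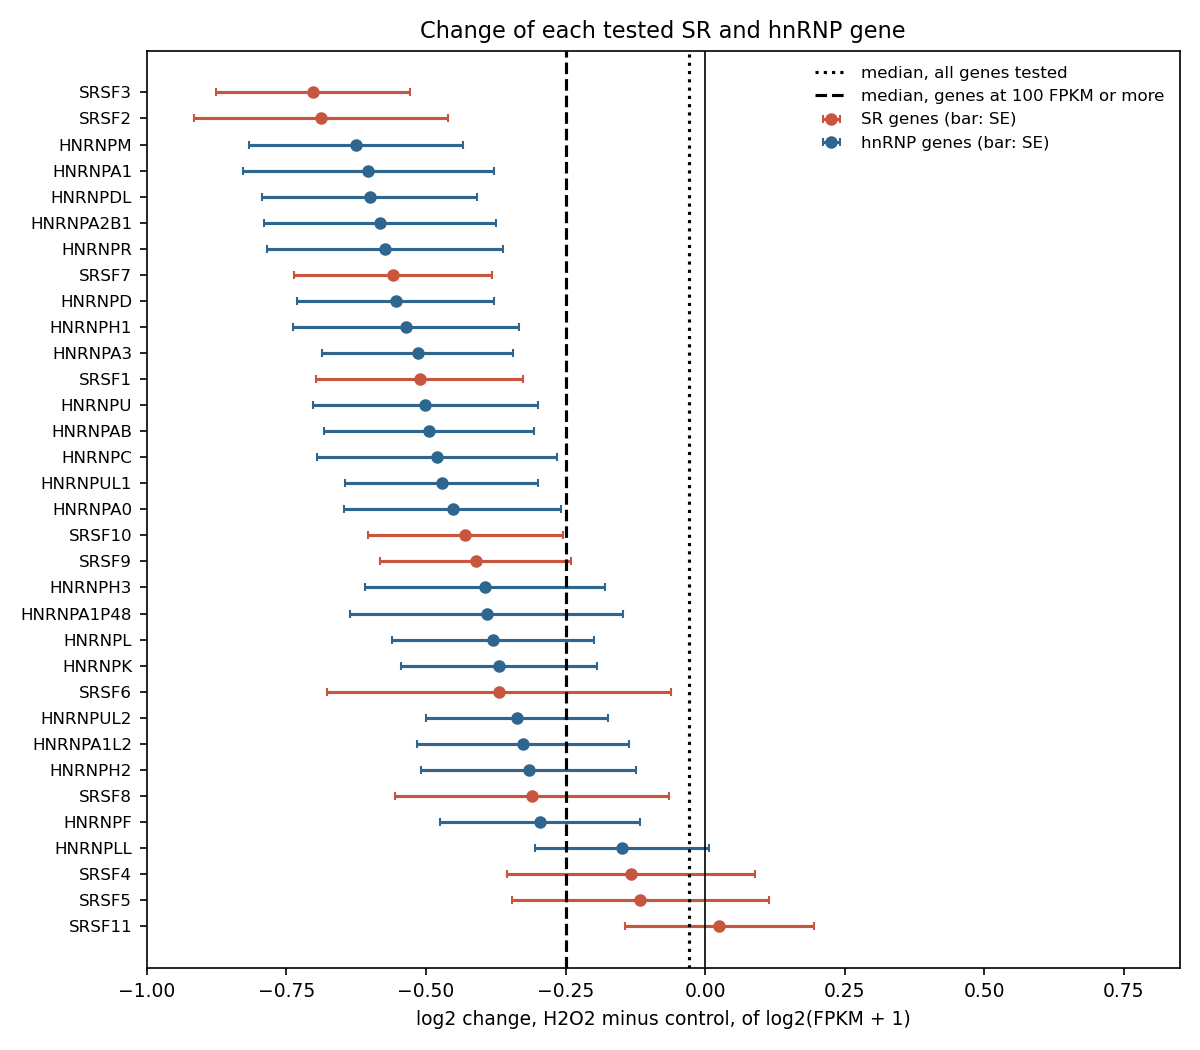
log2 change, H2O2 minus control, of log2(FPKM + 1) for each of the 33 members tested (points, limma; bars, SE), with the medians of all genes tested (dotted) and of genes at 100 FPKM or more (dashed). SRSF3 and SRSF2 lie lowest, at -0.70 and -0.69, and SRSF4, SRSF5 and SRSF11 lie nearest 0 or above it together with HNRNPLL.

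Annotated transcripts gave a second feature of the SR genes that the choice of members did not use. In GENCODE release 29, 11 of 11 SR genes tested had at least 1 transcript classed as a target of nonsense-mediated decay, up to 6 in SRSF7. The same was true of 13 of 22 hnRNP genes (59.1%), up to 9 in HNRNPU, and of 43.7% of all genes tested. FPKM were given per gene, so productive and decay-bound transcripts of a member cannot be told apart here. Of 15 factors of nonsense-mediated decay, 2 were lower at an unadjusted p under 0.05 and none higher, with a median change of -0.20. That share, 13.3%, was near the 12.3% of genes at 100 FPKM or more and above the 4.91% of all genes. The list's median level, 29.1 FPKM, lay below that of the abundant genes, so neither background matches it closely. The 2 lower genes were MAGOH and SMG6. MAGOH, a subunit of the exon junction complex, had 42.4 and 46.5 FPKM in controls and 27.8 and 28.5 FPKM in treated cells (-0.64; adjusted p = 0.305). The endonuclease gene SMG6 had 15.5 and 18.2 and 12.5 and 11.6 FPKM (-0.45; adjusted p = 0.425).

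Among the hnRNPs, HNRNPA1 (chromosome 12, 54280193 to 54287088, plus strand), which binds exonic silencers and shuttles mRNA to the cytoplasm, was the most abundant member. It had 3216 and 2615 FPKM in controls and 1737 and 2097 FPKM in treated cells, a change of -0.60 ± 0.23 (adjusted p = 0.422) with no overlap. Copies of this gene share its sequence. Of the 31-base stretches in HNRNPA1 transcripts, 25.01% occurred in transcripts of other genes, 79 genes in all, and the shares were 76.4% for HNRNPA1L2 and 58.5% for HNRNPA1P48. The values of all 3 are therefore uncertain, although each enters the family counts and medians as a separate member. HNRNPA1L2 had 18.7 and 16.1 FPKM in controls and 15.3 and 12.1 FPKM in treated cells. HNRNPA1P48 had 74.6 and 47.9 FPKM in controls and 41.8 and 49.2 FPKM in treated cells, the 1 hnRNP gene of the 22 tested whose groups overlapped.

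HNRNPA2B1, a close relative of HNRNPA1, had 1169 and 1359 FPKM in controls and 762 and 930.0 FPKM in treated cells, a change of -0.58 ± 0.21 (adjusted p = 0.41). None of its 31-base stretches occurred in another gene, though its exons overlap those of CBX3 on the other strand. HNRNPA3, of the same subfamily, had 303 and 341 FPKM in controls and 221 and 229 FPKM in treated cells, a change of -0.52 ± 0.17 (adjusted p = 0.382). HNRNPC, which binds uridine tracts, had 822 and 869 FPKM and 522 and 703 FPKM (-0.48 ± 0.21; adjusted p = 0.478). In none of these 3 genes did the groups overlap, and H2O2 library 1 was the lower treated library in each. HNRNPA1 divided by HNRNPA2B1 was 2.75 and 1.92 in controls and 2.28 and 2.26 in treated libraries.

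HNRNPM (chromosome 19, 8444767 to 8489114, plus strand), which binds GU-rich RNA and acts on CD44 splicing, had 306 and 259 FPKM in controls and 199.7 and 166 FPKM in treated cells. Its change of -0.63 ± 0.19 had the smallest unadjusted p of the hnRNPs (0.016; adjusted p = 0.352). It was below 0 under 15 of 15 alternatives, from -0.76 to -0.38, and had an unadjusted p under 0.05 in 10. HNRNPD, also called AUF1, binds AU-rich elements and speeds mRNA decay. It had 530.1 and 531 FPKM in controls and 384 and 339.6 FPKM in treated cells, a change of -0.55 ± 0.18 (adjusted p = 0.367). Its paralog HNRNPDL, a neighbour on chromosome 4, had 289 and 314 FPKM in controls and 224 and 176 FPKM in treated cells, a change of -0.60 ± 0.19 (adjusted p = 0.369). HNRNPD divided by HNRNPDL was 1.83 and 1.69 in controls and 1.72 and 1.93 in treated libraries, so the groups overlapped. HNRNPAB, of the same subfamily, had 283 and 333 and 236 and 201 FPKM (-0.49 ± 0.19; adjusted p = 0.423).

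For the G-tract binding proteins, the changes of HNRNPH1, HNRNPH2 and HNRNPF overlapped within their SE. HNRNPH1 had 236 and 318 FPKM in controls and 191 and 186 FPKM in treated cells, a change of -0.54 ± 0.20 (adjusted p = 0.423). HNRNPH2, its close paralog on the X chromosome, had 152 and 121 FPKM in controls and 116 and 101 FPKM in treated cells (-0.32 ± 0.19). An annotated read-through gene, RPL36A-HNRNPH2, shares its exons, and 20.1% of its 31-base stretches occurred in other genes, so its value and the ratio below are uncertain. HNRNPF had 289 and 277 FPKM in controls and 252 and 211 FPKM in treated cells (-0.30 ± 0.18). HNRNPH1 divided by HNRNPH2 was 1.55 and 2.64 in controls and 1.64 and 1.84 in treated libraries, so the controls alone spanned the treated values. HNRNPL, which binds CA repeats, had 195 and 222 FPKM in controls and 148 and 173 FPKM in treated cells (-0.38 ± 0.18). HNRNPLL, its paralog known for CD45 splicing in T cells, had 20.8 and 21.6 FPKM in controls and 18.9 and 19.2 FPKM in treated cells, the change nearest 0 among hnRNPs (-0.15 ± 0.16; adjusted p = 0.781). HNRNPL divided by HNRNPLL was 9.39 and 10.3 in controls and 7.82 and 9.02 in treated libraries. Exons of HNRNPL overlap those of AC008982.1, an annotated protein-coding gene on the same strand, so the HNRNPL value and this ratio are uncertain.

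The other hnRNP genes had changes of -0.57 to -0.34, and the groups did not overlap in any of them. HNRNPR had the largest, at 174 FPKM in each control and 139 and 97.9 FPKM in treated cells (adjusted p = 0.419). HNRNPU, a scaffold protein that ties RNA to chromatin, had 409 and 439 FPKM in controls and 342 and 261 FPKM in treated cells (adjusted p = 0.439), and HNRNPUL1, its relative, had 143 and 142 and 111 and 93.7 FPKM (adjusted p = 0.418). These were the 3 others with an unadjusted p under 0.05. HNRNPK, which binds poly(C) through KH domains, had 456 and 486 FPKM in controls and 383 and 346 FPKM in treated cells (adjusted p = 0.51). HNRNPH3, a relative of HNRNPH1, had 189 and 243 FPKM and 144 and 184 FPKM, with its treated library 2 close to the lower control. HNRNPUL2 had 87.2 and 96.6 FPKM in controls and 74.8 and 70.1 FPKM in treated cells, and 43.6% of its 31-base stretches also lie in an annotated read-through gene with BSCL2. Exons of SRSF9, HNRNPAB, HNRNPH3, HNRNPU and HNRNPUL1 overlap a gene on the other strand (GATC, PHYKPL, RUFY2, COX20 and TGFB1), which leaves part of their values uncertain. The shares of 31-base stretches found in other genes were 19.2% for HNRNPK, 18.4% for HNRNPA3 and 14.0% for HNRNPL. HNRNPA0, of the A subfamily, had 61.0 and 61.4 FPKM in controls and 51.6 and 38.3 FPKM in treated cells.

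The sequence before the RefSeq gene starts was described by 5 motifs. RefSeq promoter entries (GRCh38.p14) matched 20 of the 22 hnRNP genes and 10 of the 11 SR genes tested. HNRNPA1 and SRSF2, the most abundant members of their families, and HNRNPA1P48 had no entry and are not covered. The 250 bases before the annotated start were searched on both strands. The E-box CACGTG, which MYC and MAX and other helix-loop-helix proteins bind, was present in 6 of 20 hnRNP promoters, in 0 of 10 SR promoters and in 9.2% of the 9011 tested genes with an entry. Each window of 30 bases is given on the gene's strand with the E-box in capitals. The RefSeq start can differ from the outermost GENCODE start given for a gene, and the windows of HNRNPA3, HNRNPD, HNRNPDL, HNRNPH3 and HNRNPM lie inside the GENCODE span of their gene, which covers all its transcripts.
HNRNPA3, chr2:177212711-177212740, plus strand: cggaaaacgcgtCACGTGacgactggcccc
HNRNPD, chr4:82374001-82374030, minus strand: gcgctctcgcgtCACGTGaccgggacgcgc
HNRNPDL, chr4:82430364-82430393, minus strand: agaggcccggggCACGTGcagaaaggagcc
HNRNPH3, chr10:68331631-68331660, plus strand: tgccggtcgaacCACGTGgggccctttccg
HNRNPM, chr19:8444921-8444950, plus strand: gttgcgtcgggtCACGTGggcgcgcaggcg
HNRNPH2, chrX:101408168-101408197, plus strand: ccgagagttgctCACGTGaccgagatctca
HNRNPH2 held another E-box, 9 bases before its start. The CCAAT box (CCAAT) was present in 13 of 20 hnRNP and 2 of 10 SR promoters, beside 35.3% of all, and the GC box (GGGCGG) in 16 and 3, beside 69.6%. The ETS core (CCGGAAG) was in 3 and 2 (17.2% of all) and the TATA box (TATAAA) in 3 and 2 (5.0% of all). No motif holds another within its letters, and a match is a description of the sequence, not of binding.

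Genes that set the state and place of SR proteins lay on both sides of 0. SR proteins work in a phosphorylated state set by the SRPK and CLK kinases and are carried into the nucleus by TNPO3. Of 17 genes in this list, 10 had a change below 0 and 7 above, with a median of -0.00. Only PPP1CA, a catalytic subunit of protein phosphatase 1, had an unadjusted p under 0.05 (5.88% of the list, beside 4.91% of all genes), at 261 and 259 FPKM in controls and 180.2 and 201 FPKM in treated cells (-0.45; adjusted p = 0.423). CLK3 and SRPK1 were chosen after their values were seen. CLK3 had 24.3 and 29.1 FPKM in controls and 32.6 and 37.4 FPKM in treated cells (0.38; adjusted p = 0.502), and SRPK1 had 46.1 and 44.0 FPKM in controls and 53.7 and 46.3 FPKM in treated cells (0.14; adjusted p = 0.80).

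Genes of other proteins with arginine-serine tails had a change below 0 in 17 of 17 tested, with a median change of -0.28, beside 54.3% of all genes and 85.8% of genes at 100 FPKM or more. Of these, 3 (17.6%) were lower at an unadjusted p under 0.05, beside 4.91% and 12.3%. ACIN1, a subunit of a splicing complex on exon junctions, had 71.7 and 78.4 FPKM in controls and 55.1 and 50.4 FPKM in treated cells (-0.50; adjusted p = 0.371). TRA2A, an SR-like activator, had 51.4 and 71.8 and 41.2 and 37.1 FPKM (-0.62; adjusted p = 0.385), and SNRNP70, a U1 particle protein, had 206 and 211 and 137 and 168 FPKM (-0.46; adjusted p = 0.435). U2AF1, the small U2AF subunit, did not exceed 0.153 FPKM and its copy U2AF1L5 did not exceed 0.0917 FPKM, while the large subunit U2AF2 had 152 to 235 FPKM. U2AF1 is an essential splicing factor, and its value in this table was not read as its level.

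hnRNP-like proteins under other symbols were below 0 in 17 of 19 tested, with a median change of -0.35, a share near the 85.8% of genes at 100 FPKM or more. At an unadjusted p under 0.05, 3 (15.8%) were lower and 1 higher, beside 12.3% lower among genes at 100 FPKM or more and 4.91% among all genes. PCBP1, a poly(C)-binding protein, had 308 and 290.2 and 221 and 209 FPKM (-0.48; adjusted p = 0.402), and RBMX, also known as hnRNP G, had 418 and 309 and 264 and 214 FPKM (-0.60; adjusted p = 0.423). PCBP3, of low level, had 1.07 and 0.669 FPKM in controls and 2.62 and 1.68 FPKM in treated cells (0.74; adjusted p = 0.379). Tissue-type regulators such as ESRP1, RBFOX2 and the MBNL genes had a median change of 0.02 over 11 tested of 21 listed, with 0 at an unadjusted p under 0.05 by limma. The smallest p values there belonged to KHDRBS1, at 209.9 and 165 FPKM in controls and 139 and 138 FPKM in treated cells (-0.43; adjusted p = 0.47), and MBNL1, at 27.2 and 35.3 and 23.0 and 24.6 FPKM (-0.37; adjusted p = 0.543).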

How the data were processed

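RNA was profiled in 2 control and 2 H2O2-treated SW620 libraries made from total RNA with a directional kit, per the labels' protocols. The deposited values are FPKM made by the authors, 1 per gene and library, for 19389 protein-coding rows. The submitters' processing notes name STAR 2.5, Cufflinks 2.2.1 and hg38 with no role or order, and which annotation, strand setting or filter applied is not given in the sources used here. Cufflinks estimates split reads between similar genes, so copies are uncertain, and low genes understate their change on the log2(FPKM + 1) scale. Depth is unknown and no count model was used.

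The fit used limma 3.58.1 in R 4.3.3 with group as the only term and a variance trend (pseudocount 1, 2 residual and 6.28 total degrees of freedom), two-sided, adjusted by Benjamini-Hochberg over 11318 genes. Its code was run on simulated data with changes larger than that of any member, which does not bear on the power to call members. Members and companion lists were chosen with earlier results of these data known, so counts and medians of lists carry no p. Of 122 companion and marker symbols, 120 matched a row; QKI and MKI67 are not analysed here. Named companion genes are up to 4 per list with the smallest unadjusted p under 0.05, or the 2 smallest, except where stated. Some items are not reported here. Members given with all values follow the rule of smallest p, highest level and closest paralogs in each family, and SRSF11, HNRNPA1L2, HNRNPA1P48, HNRNPR, HNRNPU and HNRNPUL1 were added after their values were seen. Coordinates, transcripts and shared 31-base stretches came from GENCODE release 29 on hg38, in which all 38 members were found, and promoters from RefSeq. Alternatives were other pseudocounts, filters and scalings, no variance trend, a replicate block and leaving out each library. Figures were drawn with matplotlib 3.10.9.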

Additional observations from a re-analysis of the deposited data

How the results depend on the processing

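Of 495 values of single members under 15 alternatives, 479 kept their sign and their side of an adjusted p of 0.05, 15 turned sign and 1 passed (SRSF3 with the replicate block, adjusted p = 0.0316). Turned signs were SRSF4 at 0.050, SRSF5 at 0.0695 and HNRNPLL at 0.0296 after TPM rescaling, SRSF5 at 0.0946 after quantile normalization and 0.11 after cyclic loess, SRSF11 at -0.0830 without control 1, SRSF4 at 0.0563 and SRSF5 at 0.17 without control 2, SRSF4 at 0.0805 without H2O2 library 1, SRSF11 at -0.0196, SRSF6 at 0.10 and SRSF8 at 0.00135 without H2O2 library 2, and SRSF4 at 0.10, SRSF5 at 0.13 and HNRNPLL at 0.0828 when scaled on genes at 100 FPKM or more. With 1 library left out, the lowest values were -0.35 for SRSF4, -0.41 for SRSF5, -0.84 for SRSF6 and -0.62 for SRSF8, and SRSF11 reached 0.13. The cause was not tested.

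The SR median was -0.23 after TPM rescaling, quantile normalization and cyclic loess, -0.17 when scaled on genes at 100 FPKM or more, and -0.62 to -0.35 with 1 library left out. The hnRNP median was -0.42 with no filter, where the 4 low hnRNP C-like genes enter, -0.29 (TPM), -0.40 (upper quartile), -0.27 (quantile), -0.26 (loess), -0.23 (genes at 100 FPKM or more) and -0.49 to -0.40 with 1 library left out. SR minus hnRNP lay between -0.15 and 0.0609 with 1 library left out and was negative without H2O2 library 1. SR genes lower at an unadjusted p under 0.05 numbered 1 (TPM, quantile, loess and genes at 100 FPKM or more), 3 (upper quartile) and 0 to 7 with 1 library left out. The hnRNP genes numbered 7 (no filter), 1 (TPM), 4 (upper quartile), 0 (quantile, loess and genes at 100 FPKM or more) and 1 to 13. Over all 15 alternatives, 0.848% to 11.4% of all genes and 1.64% to 31.6% of genes at 100 FPKM or more were lower at that p. Over all genes, limma called 5 higher at a mean FPKM of at least 5, 32 after TPM rescaling, 28 when scaled on genes at 100 FPKM or more, and 8 to 127 higher and 0 to 13 lower with 1 library left out, on the assumption that a lone library varies as the other group does. The replicate block, a pairing no label states, called 397 higher and 190 lower and 1 SR gene; deviations of same-numbered libraries correlated at r = 0.451 across genes. Depth, which is unknown, and 2 libraries per group limit what could be called.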
